A study of Mus musculus with 15 samples.

Results

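Nanog, Esrrb, Nr5a2, Tfcp2l1, Tbx3, Prdm14 and Nr0b1, 7 transcription factors of the naive pluripotency network, were followed while ERK signalling was switched on and then blocked in mouse epiblast-like cells (EpiLCs). They were taken by name, through their Ensembl identifiers, from the 52636 rows of the deposited count table, and 7 of 7 were found, each once. The EpiLCs came from CRAFR26 mouse embryonic stem cells, which carry a c-RAF kinase construct that becomes active on addition of 4-hydroxytamoxifen (4OHT), so the controls carry the construct too. Stem cells were taken through 2 passages as RSCs and then 48 h in N2B27 medium with 12 ng/ml bFGF, 20 ng/ml Activin A and 1 µM XAV939, an inhibitor of tankyrase. Every group was held with 250 nM of the FGF receptor inhibitor PD17 for 2 h beforehand. The 0h group got no 4OHT (3 samples), the 2h and 4h groups got 250 nM 4OHT for 2 h and 4 h (4 samples each), and the rev group got 4 h of 4OHT followed by 2 h with a MEK inhibitor (4 samples). Samples came from 2 clones of the line, with 1 sample of clone 4 and 2 of clone 8 at 0h and 2 of each clone elsewhere. A further 0h sample was discarded in the authors' quality control. Each clone is 1 clonal line, and no time-matched culture without the MEK inhibitor is among the groups, so the inhibitor and the 2 further hours cannot be told apart. Nothing in the labels says that the samples of a clone were separate cultures, so p-values measure the spread between samples, which may be technical.

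In the mouse, naive pluripotency is the state of the early epiblast and of embryonic stem cells, and it is held by a network of transcription factors that activate one another and themselves. ERK, the kinase at the end of the RAF and MEK cascade, is known for driving cells out of that state. EpiLCs stand for the later, formative epiblast, in which Oct4 (Pou5f1) and Sox2 stay on while most of the naive factors are low.

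The EpiLC identity given in the labels was checked with 6 markers (Pou5f1, Sox2, Otx2, Fgf5, Pou3f1 and Dnmt3b). Their summed level was 1160 to 1400 CPM (counts per library size, with libraries scaled by edgeR's TMM method) at 0h. It was 1080 to 1290 after 2 h of 4OHT, 681 to 761 after 4 h and 949 to 1050 in the rev libraries, and none of the markers was at 0 in any group. Dnmt3b made up most of the sum, with a mean of 935 CPM at 0h and 416 at 4h. The markers did not move together. From 0h to 4h the means of Pou5f1, Fgf5, Pou3f1 and Dnmt3b fell, while Sox2 went from 22.3 to 111 and Otx2 from 12.3 to 25.1. The 4h libraries also stood apart in depth. Their total counts were 1552022 to 6658950, against 8667880 to 13004556 in the other 11 libraries. Mitochondrial genes took 7.21% to 12.4% of the counts at 4h and 2.67% to 6.98% elsewhere, and the 20 most abundant genes took 65.4% to 79.3% at 4h and 51.1% to 73.3% elsewhere. The level that 3 counts stand for, used here as a floor, was 0.683 to 1.83 CPM at 4h and 0.161 to 0.423 CPM elsewhere, for counting error only. Depth and composition move with the 4h group as a whole and cannot be told apart from it. Their part in the results was not tested beyond the alternatives given at the end. In bulk RNA, a change in the number of cells that express a gene and a change in RNA per cell cannot be told apart.

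Output genes of ERK were high at 2h and 4h. Spry4, a feedback inhibitor of the pathway, had a mean of 0.856 ± 0.123 CPM (SD, n = 3) at 0h and, with n = 4 each, 91.1 ± 34.5 at 2h, 70.4 ± 34.2 at 4h and 14.0 ± 4.28 in rev. Of the 4 output genes checked (Spry2, Spry4, Dusp6 and Egr1), 4 were called higher at 2h than at 0h, as were 3.98% of all tested genes. At 4h 4 were called higher than at 0h, as were 20.5% of all tested genes. In rev 3 of the 4 were called lower than at 4h, as were 15.6% of all tested genes. Egr1 was the exception, with 38.4 CPM at 4h and 44.7 in rev in clone 8 and 200 and 97.9 in clone 4. All 4 remained called higher in rev than at 0h, as were 6.49% of all tested genes. At 2h and 4h these genes serve as the check that ERK was induced.

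The factors follow here by their kind, beginning with the homeobox factor, then the nuclear receptors, then the others. Promoter windows of the RefSeq annotation (GRCm38.p6, 250 bases before to 50 after a start site) were found for 5 of the 7, in 8 windows. There were none for Tbx3 and Prdm14. Of these, 3 windows are shown: those of Nanog and Nr0b1, the only members with a match to a motif searched, and that of Esrrb, the nuclear receptor with the largest rise from 2h to 4h. Each is written 5′ to 3′ on the gene's strand (+ for these genes), with the matched letters in capitals.
Nanog, chr6:122707239-122707538: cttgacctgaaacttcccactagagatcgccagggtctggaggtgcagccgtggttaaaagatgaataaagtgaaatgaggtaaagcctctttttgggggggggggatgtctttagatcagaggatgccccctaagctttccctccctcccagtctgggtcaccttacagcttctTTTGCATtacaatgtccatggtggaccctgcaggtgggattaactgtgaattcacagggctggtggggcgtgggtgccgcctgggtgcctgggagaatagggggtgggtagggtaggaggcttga
Esrrb, chr12:86360867-86361166: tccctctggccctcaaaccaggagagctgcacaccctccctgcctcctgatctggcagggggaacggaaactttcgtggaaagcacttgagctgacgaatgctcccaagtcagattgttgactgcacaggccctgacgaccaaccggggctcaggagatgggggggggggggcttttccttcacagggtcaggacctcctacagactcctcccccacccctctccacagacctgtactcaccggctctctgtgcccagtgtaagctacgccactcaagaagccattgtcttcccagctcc
Nr0b1, chrX:86191525-86191824: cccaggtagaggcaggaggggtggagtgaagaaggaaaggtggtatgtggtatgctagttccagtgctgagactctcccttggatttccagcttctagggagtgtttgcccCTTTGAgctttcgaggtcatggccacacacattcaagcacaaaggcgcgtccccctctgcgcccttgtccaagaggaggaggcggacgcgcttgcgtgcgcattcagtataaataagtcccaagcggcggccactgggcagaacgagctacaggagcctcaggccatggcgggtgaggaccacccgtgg
The motifs searched, on both strands, were an octamer core (ATGCAAA), bound by Oct4 and related factors, an element of orphan nuclear receptors (AAGGTCA), an ETS motif (CCGGAAG), AP-1 (TGANTCA) and TCF/LEF (TCAAAG). In Nanog the match, at position −75 from the start site, was to the octamer core on the opposite strand. The same letters lay at −151 in its other, overlapping window. In Nr0b1 the match, at −139, was to TCF/LEF on the opposite strand. The windows of Esrrb, Nr5a2 and Tfcp2l1 held none of the 5 motifs. Over all 32851 windows, 4.63% held the octamer core, 4.72% the nuclear receptor element, 8.86% the ETS motif, 7.81% AP-1 and 16% TCF/LEF. A match describes the letters and does not by itself show binding.

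After 2 h of 4OHT, when the ERK output genes were already high, none of the 7 factors was called. A gene was called when its adjusted p fell under 0.05 in edgeR's quasi-likelihood test (two-sided, Benjamini-Hochberg over the 13451 genes tested, clone as a covariate). In that comparison 6.45% of all tested genes were called, and in that fit 0 of the 7 had an unadjusted p under 0.05 (lowest 0.0846, Tbx3). DESeq2 also called 0 of the 7 here. For Prdm14 the comparison rests on 4 reads at 2h and 3 at 0h, so its outcome carries little weight. Fold changes of the 7 in the fit with clone as a covariate lay between −0.60 and 0.66 on the log2 scale. For Nanog each 2h library lay below each 0h library, and the fitted difference of −0.32 (SE 0.42, adjusted p = 0.724) did not pass. Between those libraries 8.99% of all tested genes lay in that order. When each clone had its own term for every group, none of the 7 was called in clone 8. There Nanog had −0.41 (SE 0.168, edgeR unadjusted p = 0.0242, adjusted p = 0.263) and Nr0b1 0.84 (SE 0.283, unadjusted p = 0.00765, adjusted p = 0.146). In clone 4, with 1 library at 0h, the changes were −0.45 for Nanog, −0.69 for Esrrb and 0.02 for Nr5a2. They were −0.70 for Nr0b1, 0.79 for Tfcp2l1 and 1.68 for Tbx3.

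Between 2 h and 4 h of induction the 6 factors other than Prdm14 rose, by 2.24-fold (Tfcp2l1) to 18.1-fold (Esrrb). In this comparison 38.9% of all tested genes were called and 19.7% were called higher. The median log2 fold change of the 6 was 2.24, against −0.01 over all tested genes. In each of the 6 every 4h library was above every 2h library, as in 12.8% of tested genes. Against 0h the same 6 were higher at 4h, where 20.5% of tested genes were called higher. For 5 of them, Nanog being the exception, every 4h library was above every 0h library, as in 18.2% of tested genes. The 7 passed the filter on low counts, but Prdm14 did so only through its 4h libraries, so its rise was a condition of its being tested and it is described apart.

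**Figure D1:**
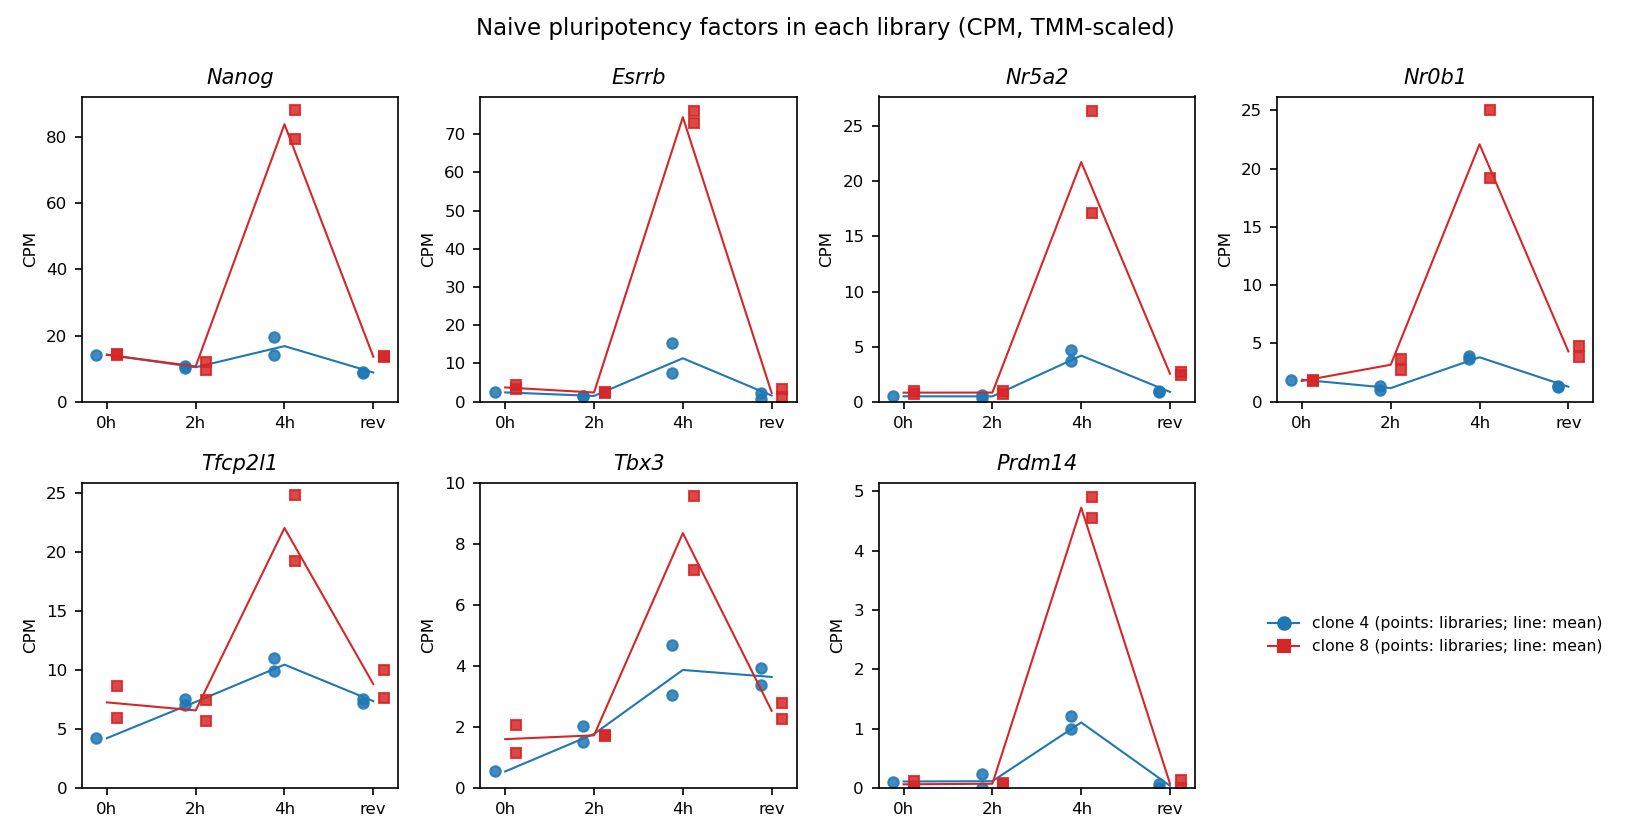
CPM of each factor (y axis, from 0) in every library, by group (x axis), with clone 4 as blue circles, clone 8 as red squares, and a line through each clone's mean. In every panel the clone 8 libraries at 4h are the highest points, and in each clone the mean at 2h is below the mean at 4h.

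Nanog (chr6:122707489-122714633, + strand, GRCm38) encodes the homeobox factor at the centre of the naive network. At 0h it stood at 14.2 CPM in the clone 4 library and at 14.0 and 14.4 in those of clone 8. At 2h it stood at 10.7 and 10.1 in clone 4 and at 11.9 and 9.43 in clone 8. At 4h it stood at 14.1 and 19.5 CPM in clone 4 and at 88.3 and 79.5 in clone 8. The clone 8 libraries at 4h were thus far above every other library, while 1 clone 4 library at 4h lay within the range of 0h. The rise from 2h to 4h was 2.04 on the log2 scale (SE 0.415, edgeR adjusted p = 0.00269), and from 0h it was 1.71 (SE 0.44, adjusted p = 0.0101). The second of these did not pass when only the 0h and 4h libraries were fitted (1.59, adjusted p = 0.0799). Nanog has processed pseudogenes, and reads that also match them are a source of uncertainty in its counts. The count table has separate rows for Nanog-ps1 and Nanog-ps2, whose counts are not given here.

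Esrrb (chr12:86361117-86521628, + strand) encodes an orphan nuclear receptor that acts with Nanog and Oct4 on naive genes. It stood at 2.43 CPM in clone 4 and at 3.21 and 4.24 in clone 8 at 0h, and at 1.59 and 1.41 in clone 4 and 2.27 and 2.52 in clone 8 at 2h. At 4h it stood at 15.3 and 7.41 in clone 4 and at 72.8 and 76.1 in clone 8. Each 4h library was above each library of 0h and 2h, in both clones. Its rise from 2h to 4h was 4.18 (SE 0.551, adjusted p = 0.000134), and against 0h it was 3.57 (SE 0.578, adjusted p = 0.000575).

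Nr5a2 (chr1:136842571-136960448, − strand), also known as Lrh-1, is a nuclear receptor that binds regulatory DNA of Pou5f1 and Nanog. It was close to the floor before the rise, at 0.486 CPM in clone 4 and 0.668 and 0.969 in clone 8 at 0h, and at 0.34 and 0.619 in clone 4 and 0.959 and 0.696 in clone 8 at 2h. At 4h it stood at 3.67 and 4.69 in clone 4 and at 17.1 and 26.4 in clone 8. The groups did not overlap. The rise was 4.13 against 2h (SE 0.329, adjusted p = 4.41e-09) and 4.19 against 0h (SE 0.352, adjusted p = 1.1e-08). The lower of the clone 4 values at 4h rests on 6 reads.

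Nr0b1 (chrX:86191764-86195947, + strand), also known as Dax1, encodes a receptor-like protein without a DNA-binding domain of the usual kind that binds other nuclear receptors and Oct4. It stood at 1.89 CPM in clone 4 and 1.74 and 1.82 in clone 8 at 0h, and at 1.36 and 0.973 in clone 4 and 2.7 and 3.64 in clone 8 at 2h. At 4h it stood at 3.67 and 3.95 in clone 4 and at 25 and 19.2 in clone 8. The lowest 4h library was only just above the highest 2h library, since clone 8 was the higher clone at 2h. The rise was 2.44 against 2h (SE 0.33, adjusted p = 8.2e-06) and 2.62 against 0h (SE 0.363, adjusted p = 1.23e-05).

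Tfcp2l1 (chr1:118627945-118685168, + strand) encodes a CP2-family factor that acts downstream of the cytokine LIF in naive cells. It stood at 4.21 CPM in clone 4 and 5.88 and 8.6 in clone 8 at 0h, and at 7.04 and 7.52 in clone 4 and 5.67 and 7.45 in clone 8 at 2h. At 4h it stood at 11 and 9.87 in clone 4 and at 24.8 and 19.2 in clone 8. The 4h libraries lay above those of 0h and 2h without overlap, by a small margin in clone 4. Its rise was the smallest of the 7, at 1.17 against 2h (SE 0.216, adjusted p = 0.000218) and 1.45 against 0h (SE 0.236, adjusted p = 5.64e-05). When libraries were scaled by their total count the rise against 2h was 0.63 (adjusted p = 0.083). The gene shares 130 exon bases with the small RNA gene Gm23497 on the same strand, so reads there could be assigned to either. Gm23497 itself held 0 counts in every library.

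Tbx3 (chr5:119670669-119684724, + strand) encodes a T-box factor of naive cells that also acts in endoderm. It stood at 0.54 CPM in clone 4 and 1.14 and 2.06 in clone 8 at 0h, and at 2.04 and 1.5 in clone 4 and 1.74 and 1.71 in clone 8 at 2h. At 4h it stood at 3.05 and 4.69 in clone 4 and at 9.56 and 7.16 in clone 8. The 4h libraries lay above the others, and the lowest of them rests on 5 reads. The rise was 1.83 against 2h (SE 0.327, adjusted p = 0.000153) and 2.48 against 0h (SE 0.37, adjusted p = 2.15e-05). Tbx3 shares 115 exon bases with its antisense gene Tbx3os1, and the handling of strand is not given in the sources used here. Tbx3os1 held 0 or 1 read in each library, and 0 in each library at 4h.

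Prdm14 (chr1:13113457-13127163, − strand) encodes a zinc finger protein of naive and germ cells that represses genes of the FGF pathway and of DNA methylation. It was measured by single reads outside the 4h group. The libraries held 2 reads in clone 4 and 0 and 1 in clone 8 at 0h, and 2 and 0 in clone 4 and 1 and 1 in clone 8 at 2h. At 4h there were 2 and 4 reads in clone 4 and 20 and 13 in clone 8, or 1.22, 0.987, 4.55 and 4.9 CPM. In rev there were 1 and 0 in clone 4 and 1 and 0 in clone 8. No fold or test of its 4h level against the other groups is given here, since it was tested through its 4h counts.

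Per length, Nanog was the most abundant of the 7 in each group. Its level was 6.33 ± 0.0996 CPM per kb (SD, n = 3) at 0h, followed by Nr0b1 at 1.00 ± 0.042, Tfcp2l1 at 0.66 ± 0.235, Esrrb at 0.545 ± 0.15, Tbx3 at 0.188 ± 0.116, Nr5a2 at 0.12 ± 0.0414 and Prdm14 at 0.0298 ± 0.0259. At 4h the order per length became Nanog at 22.5 ± 17.4 (SD, n = 4), Nr0b1 at 7.17 ± 6, Esrrb at 7.10 ± 6.06, Nr5a2 at 2.2 ± 1.84, Tfcp2l1 at 1.72 ± 0.75, Prdm14 at 1.14 ± 0.818 and Tbx3 at 0.923 ± 0.43. Neighbours in the second order lay within each other's spread, which at 4h is mostly the gap between the clones. At 0h, Tfcp2l1 and Esrrb, and Tbx3 and Nr5a2, lay within each other's spread.

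After 2 h with the MEK inhibitor the 6 factors other than Prdm14 fell, with a median log2 fold change of −2.07 against 0.02 over all tested genes. In rev against 4h, 30.8% of all tested genes were called and 15.6% were called lower. A rise from 2h to 4h followed by a fall in rev, both called, was found for 13.3% of tested genes and for these 6. Every rev library was below every 4h library for 3 of the 6 (Nanog, Esrrb and Nr5a2), as in 10.8% of tested genes. The rise and the fall share the 4h libraries, so a value that is high there enters both.

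Nanog stood at 8.97 and 8.67 CPM in clone 4 and at 13.4 and 13.8 in clone 8 in rev, each below each 4h library. The fall was −2.01 (SE 0.409, edgeR adjusted p = 0.0036). Each rev library was also below each 0h library, an order held by 11.3% of tested genes, and the difference from 0h of −0.29 (SE 0.418, adjusted p = 0.703) did not pass. Within clone 4 it did (−0.69, SE 0.2, adjusted p = 0.0425, with 2.51% of tested genes called lower), and it rests on the 1 library of clone 4 at 0h.

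Among the nuclear receptors, Esrrb stood at 2.38 and 0.826 CPM in clone 4 and 3.24 and 1.35 in clone 8 in rev, near its levels before induction. Its fall was −4.10 (SE 0.553, adjusted p = 0.000223) and its difference from 0h was −0.52 (SE 0.563, adjusted p = 0.598). Nr5a2 stood at 0.841 and 0.929 in clone 4 and at 2.68 and 2.39 in clone 8. It fell by 2.80 on the log2 scale (SE 0.298, adjusted p = 4.73e-07) and remained above 0h by 1.38 (SE 0.359, adjusted p = 0.0151). In rev against 0h, 11.2% of tested genes were called and 6.49% were called higher. The clone 4 libraries of Nr5a2 in rev overlapped the 0h range, and the call was lost without the 0h library clone8_1 (1.09, adjusted p = 0.106), without the clone term (adjusted p = 0.284) and with scaling by total count (adjusted p = 0.144). Nr0b1 stood at 1.33 and 1.24 in clone 4 and at 4.79 and 3.84 in clone 8, with a fall of −2.13 (SE 0.325, adjusted p = 5.02e-05). Its rev range overlapped that of 4h across clones but not within either clone. In clone 8 it remained above 0h by 1.27 (SE 0.288, adjusted p = 0.0113, with 2.95% of tested genes called higher in that clone), and in clone 4 the difference was −0.55 (SE 0.349, adjusted p = 0.395). Over both clones it stood 0.50 above 0h (SE 0.354, adjusted p = 0.392), and 1.35 above it (adjusted p = 0.0144) without the 0h library of clone 4, the 1 that clone has. The differences within the clones did not differ between the clones at the threshold (1.82, SE 0.451, adjusted p = 0.159).

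Tfcp2l1 stood at 7.15 and 7.54 CPM in clone 4 and at 10 and 7.57 in clone 8 in rev, so that the highest rev library overlapped the lowest 4h one. It fell by 0.97 (SE 0.215, adjusted p = 0.00161), and with scaling by total count by 0.55 (adjusted p = 0.171). Tbx3 stood at 3.36 and 3.92 in clone 4, within the range of clone 4 at 4h, and at 2.26 and 2.8 in clone 8, below both 4h libraries of that clone. Its fall of −0.96 (SE 0.319, adjusted p = 0.0266) rested on clone 8: the call was lost when any of the 4 clone 8 libraries of 4h or rev was left out (adjusted p between 0.0506 and 0.131), and with scaling by total count (−0.46, adjusted p = 0.348). Against 0h Tbx3 was higher by 1.53 (SE 0.363, adjusted p = 0.00849), with every rev library above every 0h library, as in 14.7% of tested genes. That value rests in part on the 1 clone 4 library at 0h, which was low and without which it was 1.07 (adjusted p = 0.145). Within clone 4 the difference was 2.72 (SE 0.469, adjusted p = 0.000938, with 4.81% of tested genes called higher in that clone), and within clone 8 it was 0.72 (SE 0.354, adjusted p = 0.3). In clone 8 Nr5a2 stood 1.65 above 0h (SE 0.383, adjusted p = 0.0133).

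Each clone was then fitted with its own term for every group. From 2h to 4h, 5 of the 6 factors other than Prdm14 rose in clone 4, where 13.5% of tested genes were called higher, and 6 of 6 rose in clone 8, where 13.9% were. The exception in clone 4 was Tfcp2l1 (0.51, SE 0.247, adjusted p = 0.136). The call for Tbx3 in clone 4 (1.20, adjusted p = 0.0253) was lost without the 2h library clone4_2 (0.96, adjusted p = 0.143) and with DESeq2 (1.22, adjusted p = 0.0682). From 4h to rev, 4 of the 6 fell in clone 4, where 8.39% of tested genes were called lower, and 6 of 6 fell in clone 8, where 11.9% were. With scaling by total count the clone 8 calls were lost for Tfcp2l1 in the rise (0.91, adjusted p = 0.0649) and in the fall (−0.99, adjusted p = 0.117), and for Tbx3 in the fall (−1.35, adjusted p = 0.0594). The exceptions in clone 4 in the fall were Tfcp2l1 (−0.50, SE 0.246, adjusted p = 0.177) and Tbx3 (−0.16, SE 0.36, adjusted p = 0.806). Without the deeper of the 4h libraries of clone 4 (clone4_2), 3 factors were called in the rise in clone 4 (Esrrb, Nr5a2 and Nr0b1) and 3 in the fall (Nanog, Esrrb and Nr5a2).

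**Figure D2:**
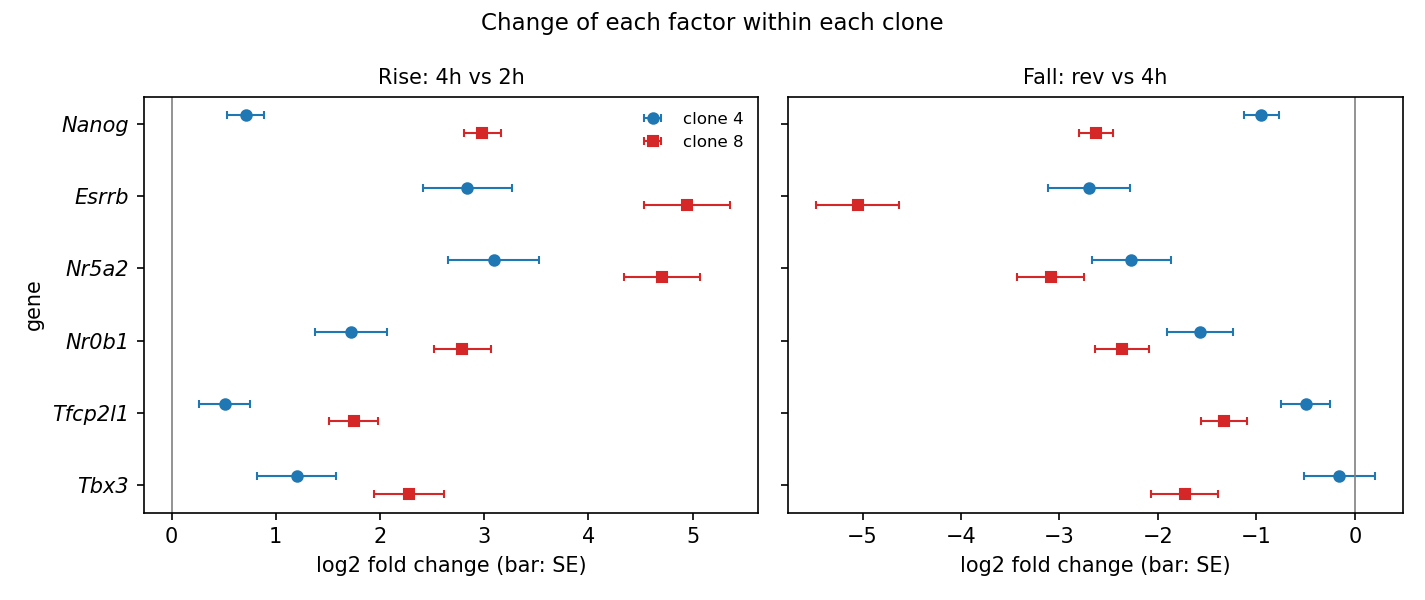
Log2 fold change from 2h to 4h (left) and from 4h to rev (right) within each clone, with bars for the SE of the edgeR fit; Prdm14 is left out because its fold is set by single reads. The clone 8 points lie farther from 0 than the clone 4 points for each factor in both panels; the difference itself was called for Nanog and Esrrb.

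The levels reached at 4h were higher in clone 8 for each factor. The mean CPM of clone 8 over that of clone 4 at 4h was 5 for Nanog, 6.57 for Esrrb, 5.20 for Nr5a2, 5.81 for Nr0b1, 2.11 for Tfcp2l1 and 2.16 for Tbx3. At 2h the same ratios were 1.03, 1.59, 1.73, 2.72, 0.901 and 0.975, and at 0h, with 1 library of clone 4, they were 1, 1.53, 1.69, 0.941, 1.72 and 2.96. The ratio at 4h was thus the highest of the 3 for each of these factors but Tbx3, whose ratio was higher at 0h. For Prdm14 the 4h counts gave a ratio of 4.44 (exact 95% interval 1.84 to 13.0, for counting error only).

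The test of that difference is the interaction, the change in clone 8 minus the change in clone 4. For the rise from 2h to 4h it was 2.26 for Nanog (SE 0.244, edgeR adjusted p = 3e-05), from a rise of 0.71 in clone 4 (SE 0.177) and of 2.98 in clone 8 (SE 0.178). It was 2.10 for Esrrb (SE 0.568, adjusted p = 0.0497), from 2.84 (SE 0.431) and 4.95 (SE 0.412). The other values, none of which passed, were 1.62 for Nr5a2 (SE 0.587, adjusted p = 0.176), 1.24 for Tfcp2l1 (SE 0.338, adjusted p = 0.0515), 1.08 for Tbx3 (SE 0.505, adjusted p = 0.324) and 1.07 for Nr0b1 (SE 0.435, adjusted p = 0.239). In this test 3.14% of all tested genes were called and 1.14% were called higher in clone 8. Tfcp2l1 passed without the 2h library clone8_2 (1.45, adjusted p = 0.0411) and with no filter beyond 1 count (1.24, adjusted p = 0.0221). Esrrb was at the edge of the threshold, and its call was lost in 7 of 8 fits that left out 1 library (adjusted p up to 0.194). With scaling by total count neither Nanog (1.78, adjusted p = 0.104) nor Esrrb (1.47, adjusted p = 0.462) passed.

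Taken from 0h, the rise at 4h differed between the clones for Nanog (2.30, SE 0.263, adjusted p = 1.99e-05), Nr0b1 (2.62, SE 0.457, adjusted p = 0.00137) and Esrrb (2.18, SE 0.591, adjusted p = 0.0439), with 3.87% of tested genes called and 1.31% called higher. In clone 4 alone Nanog at 4h was 0.26 above 0h (SE 0.211, adjusted p = 0.376) and Nr0b1 1.02 above it (SE 0.377, adjusted p = 0.0513), and neither passed. Clone 4 has 1 library at 0h. With scaling by total count the clone difference from 0h did not pass for Esrrb (2.27), and it did for Nanog and Nr0b1. For the fall in rev the interaction was −1.68 for Nanog (SE 0.244, adjusted p = 0.000394) and −2.35 for Esrrb (SE 0.57, adjusted p = 0.0307), with 2.8% of tested genes called and 0.892% called lower. The call for Esrrb was lost in 5 of 8 fits that left out 1 library, and that for Nanog with scaling by total count (−1.83, adjusted p = 0.17) and with libraries thinned to equal depth (−1.01, adjusted p = 0.482).

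The ERK output genes differed between the clones the other way. Their rise from 0h to 4h was smaller in clone 8 for 4 of 4, with interactions of −3.68 for Egr1 (SE 0.403, adjusted p = 4.42e-05), −2.24 for Dusp6 (SE 0.216, adjusted p = 3.48e-06), −1.32 for Spry2 (SE 0.25, adjusted p = 0.00308) and −1.02 for Spry4 (SE 0.245, adjusted p = 0.02). Clone 4 has 1 library at 0h here too. In that direction 2.56% of tested genes were called. With scaling by total count the signs were the same and Egr1 alone passed, and Spry4 did not pass with the 20 most abundant and the mitochondrial genes left out (−1.05, adjusted p = 0.204). From 2h to 4h, where each clone has 2 libraries at both times, the interaction was called for 2 of the 4, at −1.02 for Dusp6 (SE 0.176, adjusted p = 0.00195) and −1.27 for Egr1 (SE 0.304, adjusted p = 0.0324), with 2% of tested genes called lower. These also differed from 0h to 2h, by −1.22 (SE 0.21, adjusted p = 0.018) and −2.41 (SE 0.392, adjusted p = 0.0201), with 0.193% called lower. At 4h Dusp6 had a mean of 84.4 CPM in clone 4 and 30.4 in clone 8.

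At 4h the clone 4 libraries held 6658950 and 1552022 counts and those of clone 8 held 6209289 and 3492073. Nanog stood at 19.5 CPM in the deeper library of clone 4 and at 88.3 in the deeper library of clone 8. With libraries thinned to equal depth its interaction from 2h to 4h was 2.03 (SE 0.444, adjusted p = 0.00908), and that of Esrrb was 2.33 (SE 0.934, adjusted p = 0.343).

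**Figure D3:**
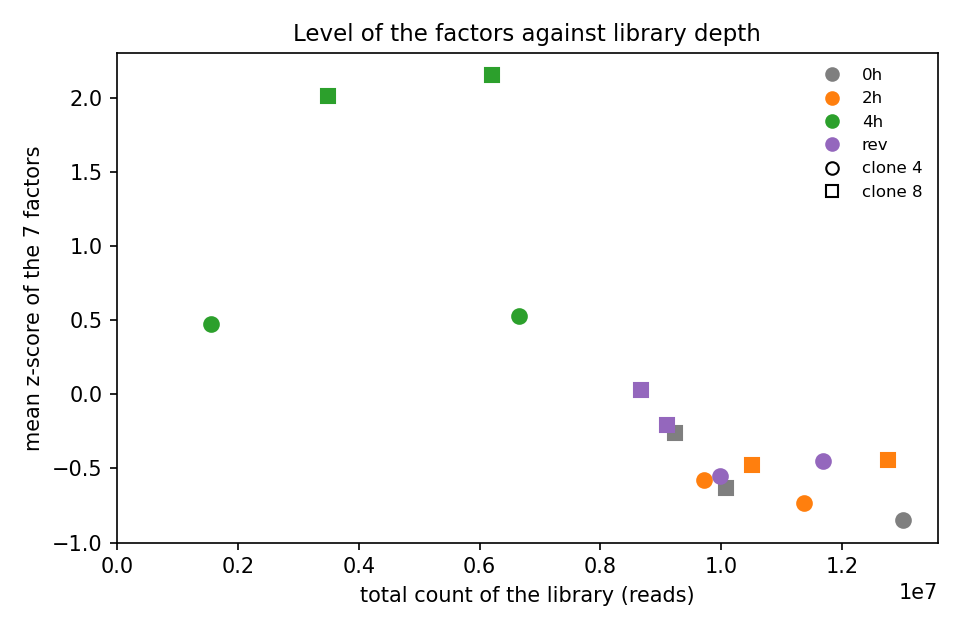
Mean z-score of the 7 factors (y axis; each factor's log2 CPM set to mean 0 and SD 1 over the 15 libraries, then averaged) against the total count of the library (x axis); colours give the group and shapes the clone. The clone 8 libraries at 4h stand at 2.15 and 2.01, those of clone 4 at 0.53 and 0.47, and the other 11 between −0.85 and 0.03. Prdm14, which passed the filter only through its 4h libraries, is among the 7 and adds to the height of the 4h points.

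Markers of other cell types were summed in each group. The 6 germ cell markers (Prdm1, Tfap2c, Nanos3, Dppa3, Dnd1 and Kit) summed to 14.8 to 18.6 CPM at 0h, 14.3 to 16.5 at 2h, 23.7 to 68.5 at 4h and 13 to 17.5 in rev. At 4h their sum was 65 in clone 8 and 24.4 in clone 4. Kit was the largest part of it, with means at 4h of 39.3 CPM in clone 8 and 7.80 in clone 4. In the same order Prdm1 stood at 9.83 and 5.83, Dppa3 at 6.70 and 3.44 and Tfap2c at 4.77 and 4.05. Dnd1 stood at 3.18 and 2.15 and Nanos3 at 1.17 and 1.10. Of the germ cell markers, Dppa3 is also a naive gene and Prdm1 and Tfap2c are known to act in early germ cells together with Prdm14. The 6 two-cell-like markers (Zscan4c, Zscan4d, Zfp352, Tcstv1, Tcstv3 and Usp17lc) summed to 7.94 to 13 CPM at 4h and to at most 2.88 elsewhere, with Tcstv3 at 0 at 4h. The 6 trophoblast markers summed to 3.19 to 11.1 CPM at 4h, highest in clone 4, and to 1.87 to 6.4 elsewhere, with Elf5 at 0 at 4h. The 7 primitive endoderm markers summed to 4.48 to 5.94 CPM at 0h, 4.93 to 6.81 at 2h, 3.02 to 7.9 at 4h and 7.26 to 9.4 in rev. The sum of the 5 mesendoderm markers was higher in every later library than at 0h, with 2.81 to 3.4 CPM at 0h, 4.36 to 5.45 at 2h, 5.69 to 11.6 at 4h and 6.74 to 11.3 in rev. Of these, Eomes was called higher at 4h than at 0h and at 2h, where 20.5% and 19.7% of tested genes were called higher. Gsc was called lower at 4h than at 2h, as were 19.2% of tested genes. Its means were 1.29 CPM at 2h, 0.276 at 4h, under the floor there, and 2.04 in rev. The part of these cell types in the rise of the factors was not tested.

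The rest of the pluripotency network was described from lists of genes written from general knowledge. Of 12 other naive genes 10 passed the filter on low counts without the help of the 4h libraries. Of these 10, 7 rose from 2h to 4h (Klf2, Klf5, Zfp42, Dppa3, Gbx2, Tet2 and Fbxo15), a step in which 19.7% of all tested genes were called higher. The same 7 fell in rev, where 15.6% were called lower. Within clone 4, 5 of the 7 were called in each step, against 13.5% and 8.39% of tested genes. Zfp42 and Dppa3 were the exceptions. At 4h the means of Klf5 and Gbx2 were higher in clone 4, and those of the rest of the 7 in clone 8. From 2h to 4h the rise was larger in clone 4 for Klf5 and in clone 8 for Fbxo15, by the interaction. In those directions 2% and 1.14% of tested genes were called. The median log2 fold change over the 10 was 1.78 and then −1.59. Fbxo15, an F-box protein known as a target of Oct4 and Sox2, had the largest change of the 7, with 2.56 (SE 0.318, adjusted p = 5.93e-06) and then −2.43 (SE 0.315, adjusted p = 1.42e-05). Its mean was 3.28 ± 0.661 CPM at 2h, 20.2 ± 12.6 at 4h and 3.55 ± 0.416 in rev (SD, n = 4). Tcl1, a cofactor of the kinase AKT, passed the filter only through its 4h libraries, so only its counts are given. The Tcl1 libraries held 0 to 11 reads at 0h, 3 to 7 at 2h and 1 to 5 in rev, while at 4h those of clone 4 held 1 and 7 and those of clone 8 held 44 and 26. Klf4, Dppa5a and Stat3 were not called in either step, and Spic had too few counts to be tested. The Klf4 means lay between 1.72 and 3.23 CPM in the 4 groups.

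Among 6 core pluripotency genes, 4 rose from 2h to 4h (Sox2, Sall4, Utf1 and Zfp281) and Pou5f1 fell, against 19.7% and 19.2% of all tested genes called higher and lower. With scaling by total count 0 of the 6 were called higher. The median of the 6 was 0.64. Sox2, the partner of Oct4, had a mean of 58.1 ± 4.27 CPM at 2h, 111 ± 30.2 at 4h and 51.3 ± 5.86 in rev (SD, n = 4), with changes of 0.91 (SE 0.115, adjusted p = 2.67e-06) and −1.09 (SE 0.115, adjusted p = 4.26e-07). Pou5f1 went the other way, with means of 163 ± 31.6, 99.0 ± 5.52 and 146 ± 11.7 and changes of −0.72 (SE 0.11, adjusted p = 3.03e-05) and 0.56 (SE 0.11, adjusted p = 0.000583).

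Of 8 formative and primed genes, 6 fell from 2h to 4h and 2 rose (Otx2 and Lef1), and in rev 5 rose and 2 fell. Of all tested genes 19.2% were called lower from 2h to 4h and 15.1% higher in rev. The median of the 8 was −0.74 and then 0.53. Sox3 had the largest fall, from 35.1 ± 6.95 CPM at 2h to 16.4 ± 5.53 at 4h, and stood at 40.0 ± 7.25 in rev (SD, n = 4), with changes of −1.14 (SE 0.212, adjusted p = 0.000565) and 1.33 (SE 0.213, adjusted p = 0.000226). Lef1, a nuclear partner of β-catenin, had the largest rise, at 1.34 (SE 0.143, adjusted p = 2.85e-07).

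A list of 7 factors was drawn up as acting against the naive network, a role not tested here that may not hold for each. Of these 7, 3 rose from 2h to 4h (Tcf7l1, Otx2 and Etv5), 1 fell (Zic2), and 5 fell in rev. Of all tested genes 19.7% were called higher and 19.2% lower in the first step and 15.6% lower in the second. With scaling by total count 0 of the 7 were called higher from 2h to 4h and 0 lower in rev. The median of the 7 was 0.30 and then −0.67. Otx2, a homeobox factor of the formative epiblast, had the largest rise, with a mean of 14.0 ± 4.21 CPM at 2h, 25.1 ± 9.58 at 4h and 14.7 ± 6.12 in rev (SD, n = 4) and changes of 0.81 (SE 0.133, adjusted p = 5.97e-05) and −0.78 (SE 0.133, adjusted p = 0.000121). The groups overlapped across clones in both steps. Foxd3, a forkhead factor, had the largest fall in rev, at −1.26 (SE 0.231, adjusted p = 0.000281), from 10.6 ± 3.02 CPM at 4h to 4.38 ± 1.45. Otx2 and Zic2 are in both of the last lists.

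**Figure D4:**
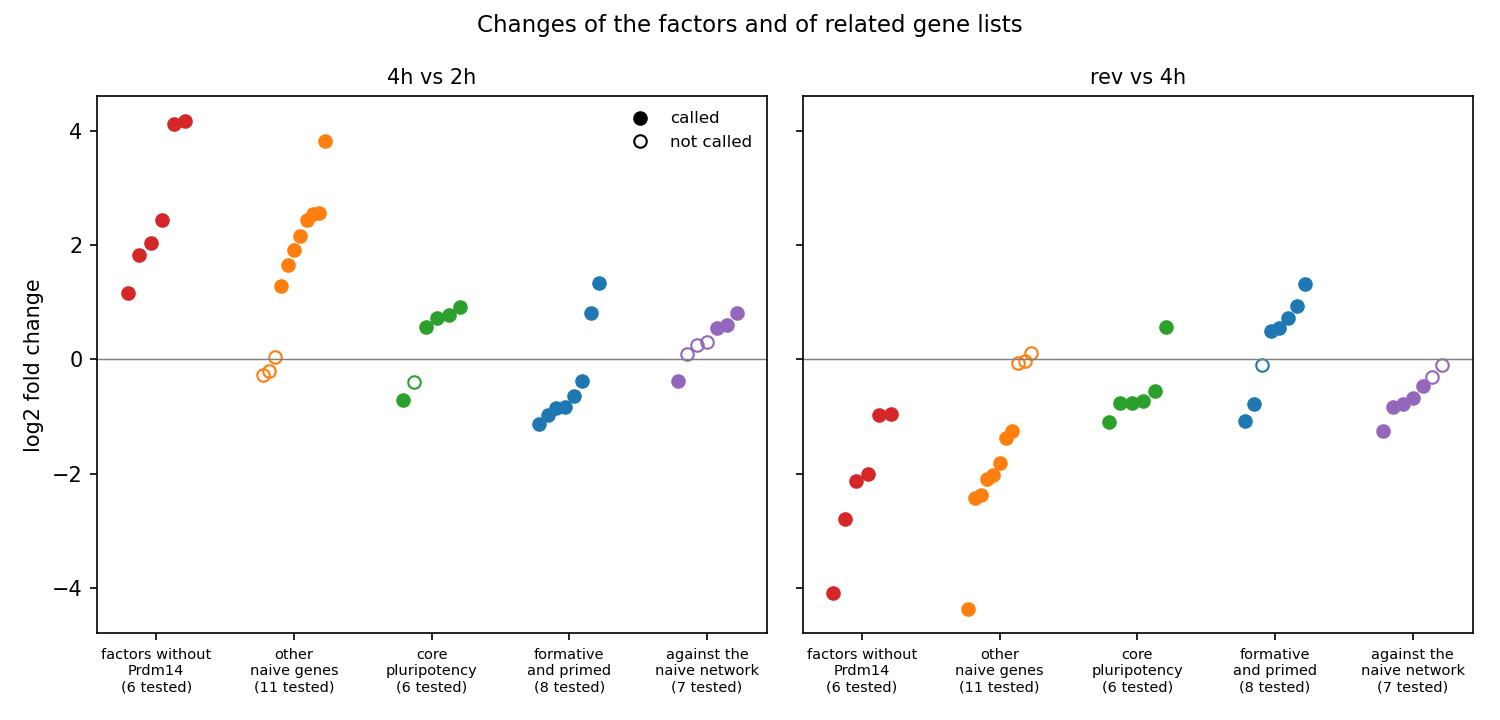
Log2 fold change (y axis) from 2h to 4h (left) and from 4h to rev (right) for each tested gene of the 5 lists (x axis, ordered within a list by its value), filled where the gene was called; both panels use the 4h libraries, and Prdm14 is left out; the highest point on the left and the lowest on the right in the list of other naive genes are Tcl1, which was tested only through its 4h libraries. The 6 factors lie between 1.17 and 4.18 on the left, and the formative and primed list has 6 of 8 genes below 0 there.

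Under scaling by total count the median of all tested genes moved to −0.57 from 2h to 4h and to 0.45 in rev, and the share of calls that were higher went from 50.6% to 9.1% and from 49.2% to 88%. Relative to that median the rise of the 6 factors was 1.20 (Tfcp2l1) to 4.22 (Esrrb). Their direction was the same as under TMM. The 7 other naive genes were called in both steps under it too, and Dppa5a was called lower from 2h to 4h (−0.76, adjusted p = 0.0146). Among the core genes Sox2 then had 0.41 (adjusted p = 0.194) and Utf1 0.02 (adjusted p = 0.966), while Pou5f1 and Fgf4 were called lower. Otx2, Tcf7l1 and Etv5 kept a positive sign (0.27, 0.02 and 0.10) and lost their calls, Lef1 was called higher, and the 6 formative and primed genes that fell were called lower.

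The 5 genes whose log2 CPM over the 15 libraries was most alike to the mean profile of the factors, among 12286 candidates with a mean of at least 1 CPM, were Jam2 (Pearson r 0.978), Psma8 (0.973), Dlc1 (0.969), Mreg (0.966) and Ncoa3 (0.964). The points share libraries and depth, and no test was made. The mean profile includes Prdm14, which passed the filter only through its 4h libraries. Jam2, a junctional adhesion molecule, had means in clone 4 of 1.17 CPM at 2h, 2.83 at 4h and 1.44 in rev, and in clone 8 of 1.31, 15.7 and 2.45. Ncoa3, a coactivator of nuclear receptors, had 41, 76.6 and 42.1 CPM in clone 4 and 43.4, 119 and 45.3 in clone 8. Both were higher at 4h in clone 8 than in clone 4. Among the factors themselves, r with their mean profile, to which each contributes, was lowest for Tbx3 (0.836) and highest for Nr5a2 (0.969).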

How the data were processed

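RNA of 15 EpiLC samples was depleted of ribosomal RNA (1 µg per sample, NEBNext) and sequenced, per the labels. The deposited values are raw counts per gene, made by the authors with bcl2fastq 2.19.1, STAR 2.5.3a and build mm10, per the submitters' processing notes. The counting tool, annotation and strand setting are not given in the sources used here. Names, positions and exon lengths came from GENCODE M21 (GRCm38), which held 52489 of 52636 identifiers.

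Samples were grouped by their titles. The analysis used edgeR 4.0.16 (R 4.3.3): filterByExpr (minimum count 10, minimum total count 15; 13451 genes), TMM scaling, and the robust quasi-likelihood F test in a model of group plus clone over 15 samples. A second model, whose terms were the 8 combinations of group and clone, gave the changes within clones and their differences. CPM uses TMM-scaled library sizes. The steps were tested on simulated data. DESeq2 1.42.0, other scalings, filters, models, thinning and leaving out each replicate were alternatives. No libraries of a group agreed within sampling noise (lowest chi-square divided by its degrees of freedom, 6.21).

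The members and lists were chosen with earlier results of these data known. The members are named throughout. Of each list at most 4 genes are given with values, those with the largest rise and fall among the called in 4h vs 2h and in rev vs 4h. Other genes named for being counted or not called were chosen after their values were seen, as was Fbxo15, given in place of Tcl1, which was tested only through its 4h libraries. A gene of these lists is not reported here.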

Additional observations from a re-analysis of the deposited data

Results flagged for a closer look

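For 3 factors the rise or the fall differed between the clones by a test of the difference itself, the edgeR interaction of clone and group. As the change in clone 8 minus that in clone 4, on the log2 scale, Nanog had 2.30 for 4h vs 0h (adjusted p = 1.99e-05), 2.26 for 4h vs 2h (adjusted p = 3e-05) and −1.68 for rev vs 4h (adjusted p = 0.000394). Esrrb had 2.18 for 4h vs 0h (adjusted p = 0.0439), 2.10 for 4h vs 2h (adjusted p = 0.0497) and −2.35 for rev vs 4h (adjusted p = 0.0307). Nr0b1 had 2.62 for 4h vs 0h (adjusted p = 0.00137), a comparison with 1 library of clone 4 at 0h, and 1.07 for 4h vs 2h (adjusted p = 0.239), which did not pass. These comparisons share the 4h libraries. Scaling by total count lost the Esrrb calls in 4h vs 0h (2.27) and 4h vs 2h (1.47). It also lost the Nanog calls in 4h vs 2h (1.78) and rev vs 4h (−1.83).

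In rev, Tfcp2l1 stood at 10 CPM in the library clone8_1, away from the other 3 rev libraries, with a gap of 0.853 of the group's range. It was the 1 flag among 21 groups of 4 libraries, and chance flags about 1 in 20.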

How the results depend on the processing

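No result changed direction while called, under any alternative run. Of 264 counts of calls recomputed, 211 stayed within 1.5 times their value, and of 1160 single fold changes 57 lost their call and 3 gained one. The low 4h depth limits the factors at few reads (Nr5a2, Nr0b1, Tbx3, Prdm14), and the cause of the shifts below was not tested except where fewer genes or samples were fitted.

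Scaling by total count left 1 factor called in rev vs 0h (Tbx3), 2 in clone 4 for 4h vs 2h (Esrrb and Nr5a2), 1 in clone 4 for rev vs 4h (Esrrb), and, for the difference between clones, 0 for 4h vs 2h and 1 for rev vs 4h (Esrrb). It called 267 genes in 2h vs 0h (867 in the reported fit) and 770 in rev vs 0h (1500). TMM with mitochondrial genes and the 20 most abundant left out called 1499 and 2296. DESeq2 size factors in edgeR left 1 factor with a clone difference in 4h vs 2h (Nanog), and DESeq2's own test left 1 in 4h vs 2h and 1 in rev vs 4h (Nanog in both). Without the clone term 1 factor was called in rev vs 0h (Tbx3), with 427 genes in 2h vs 0h and 793 in rev vs 0h. A filter of 1 count called 1305 genes in 2h vs 0h, edgeR's earlier quasi-likelihood method, added after seeing the data, 1327, and a fit of only the groups compared called 2934 in rev vs 0h.

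Thinning each library to 523950 reads, counted without mitochondrial genes or the top 20 by abundance, left 3 factors tested (Nanog, Esrrb and Tfcp2l1), since fewer genes passed the filter. These 3 were called at 4h against either earlier time, in rev against 4h, and in clone 8 for both steps. None (0) was called in rev vs 0h. In clone 4, 1 was called for 4h vs 2h (Esrrb) and 2 for rev vs 4h (Nanog and Esrrb), and the clones differed for 1 (Nanog) and 0. Against 0h, 275 genes were called at 2h, 2595 at 4h and 488 in rev. From 2h to 4h 2492 were called, and from 4h to rev 1889.

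Leaving out each replicate in turn gave 1 to 2 factors in rev vs 0h, 3 to 6 in clone 4 for 4h vs 2h and 3 to 5 in clone 4 for rev vs 4h. The clone 4 counts include Prdm14 where it was called, and it was tested through its 4h counts. A clone difference was called for 1 to 2 factors in each step, and Nanog was kept in every fit of that difference. Genes called were 308 to 1077 in 2h vs 0h and 511 to 1299 in rev vs 0h, lowest in both without the 0h library clone4_1. Where a clone and group then had 1 library, it was assumed to vary like the others.

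Replicate numbers were not found to pair the samples (r between deviations of same-numbered samples −0.194 to 0.261 within clones). With the replicate block of clone and number the 6 factors other than Prdm14 were again called in 4h vs 2h and in rev vs 4h (7 in each with Prdm14, which was tested through its 4h counts), with 5182 and 4130 genes called.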
